A study of Mus musculus with 3 samples.

Results

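The cells described here were Ucma-positive cells of the mouse cochlea, 490 of the 14378 barcodes that passed the limits on genes and mitochondrial RNA in 3 single-cell RNA libraries. Each barcode tags the transcripts of 1 droplet, taken as 1 cell, and each transcript is counted by its unique molecular identifier (UMI). One library was made at postnatal day 14 (P14) and a pair at P28 (replicates 1 and 2), each from 14 cochleae pooled from 7 C57BL/6J mice, an inbred strain. Nothing in the files maps a barcode to a mouse, so P14 was 1 pool and P28 was 2. The barcodes were chosen by UMIs: 200 to 6000 genes, at most 15% mitochondrial UMIs, at least 1 Ucma UMI, a UMI in at least 3 of Ucma, Trnp1, Pla2g5, Clic6, Phyh and Tdrd12, no Aqp4 or Sox2 UMI, and Ocm below 0.5% of UMIs.

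The cochlear duct is lined by an epithelium in which the hair cells and their supporting cells are flanked by nonsensory cells of the inner and outer sulcus. These cells are joined by connexin gap junctions, seal the endolymph space and take part in moving potassium away from the hair cells. Ucma encodes a small secreted protein rich in gamma-carboxyglutamate, a modified residue that binds calcium, and is best known from cartilage. Aqp4, a water channel, and Sox2, a transcription factor of supporting cells, mark other cells of the same epithelium, and Ocm encodes oncomodulin, the abundant calcium-binding protein of outer hair cells.

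The other 5 marker genes have little known in common. Trnp1 encodes a DNA-associated nuclear protein, Pla2g5 a secreted phospholipase A2, Clic6 a protein of the chloride intracellular channel family, Phyh the peroxisomal phytanoyl-CoA hydroxylase and Tdrd12 a Tudor domain protein of the piRNA pathway. In the RefSeq annotation of GRCm38.p6, Ucma (chr2:4976122-4985748) and Phyh (chr2:4918996-4938743) lay close together. Trnp1 (chr4:133491097-133499645) and Pla2g5 (chr4:138799247-138863562) were both on chromosome 4, and Tdrd12 (chr7:35466941-35537784) and Clic6 (chr16:92498147-92541241) were on chromosomes of their own. All 6 were annotated as protein-coding.

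The Ucma-positive cells numbered 101 at P14, 179 in P28 replicate 1 and 210 in P28 replicate 2. They made up 6.08% of the barcodes within the limits at P14 (exact binomial 95% interval 4.98 to 7.34), 3.17% in P28 replicate 1 (2.73 to 3.66) and 2.97% in P28 replicate 2 (2.59 to 3.40). The P14 share lay above both P28 shares, beyond counting error, which is all that these intervals cover; with 1 library at P14 the ages were compared without a test. The share depends on the limits and the rule. It was 5.49%, 2.69% and 1.97% at P14 and in P28 replicates 1 and 2 with at most 30% mitochondrial UMIs, and 6.32%, 4.0% and 4.43% with at most 10%. Allowing Aqp4 and Sox2 gave 15.6%, 6.46% and 4.87%, and leaving out barcodes with 3 markers of another lineage gave 12.2%, 4.67% and 3.90%. The libraries differed in other ways too: median mitochondrial UMIs in the Ucma-positive cells were 3.78% at P14, 9.02% in P28 replicate 1 and 8.68% in P28 replicate 2, and how far preparation differed between ages cannot be told apart from age. No barcode of these cells was shared between libraries.

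The cells were of moderate depth, with a median of 1838 UMIs at P14 (513 to 21037), 3309 in P28 replicate 1 (588 to 25770) and 3264 in P28 replicate 2 (608 to 18764). All other barcodes had medians of 2534, 2382.5 and 2006 UMIs in the same order, which is the order kept below (P14, P28 replicate 1, P28 replicate 2). Summed over the cells of a library, 371267, 774158 and 823561 UMIs stood behind each level, given as UMIs per 1000000 of that sum (CPM) without correction for transcript length.

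The choice by markers left its trace on their levels, which are a description and no result. Ucma was at 3203, 828 and 815 CPM in the chosen cells and at 711, 56.9 and 48.5 CPM in all other barcodes. The other barcodes include those with the same markers but an Aqp4 or Sox2 UMI, described below. These held 4765 of the 5019 Ucma UMIs of the other barcodes at P14. At P28 they held 938 of 1355 and 362 of 1091. Barcodes with macrophage markers and no Epcam UMI should lack Ucma. They had a Ucma UMI in 1.89%, 1.83% and 3.59% of cases, against 16.02%, 7.40% and 7.78% of all other barcodes. The log2 ratio of the P28 mean to P14 was -1.96 for Ucma and -2.39 for Phyh, the latter at 1358, 265 and 250 CPM. Tdrd12 went the other way, with 331 CPM at P14 against 1232 and 1043 CPM at P28, and a UMI in 54.5%, 86.0% and 82.9% of the cells. Trnp1 was at 1120, 443 and 363 CPM, Pla2g5 at 364, 204 and 170 CPM, and Clic6 at 366, 243 and 203 CPM, so that 5 of the 6 markers were highest in the P14 library. All 6 markers were found in 26 of the 101 cells at P14, in 27 of the 179 of P28 replicate 1 and in 23 of the 210 of P28 replicate 2.

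**Figure D1:**
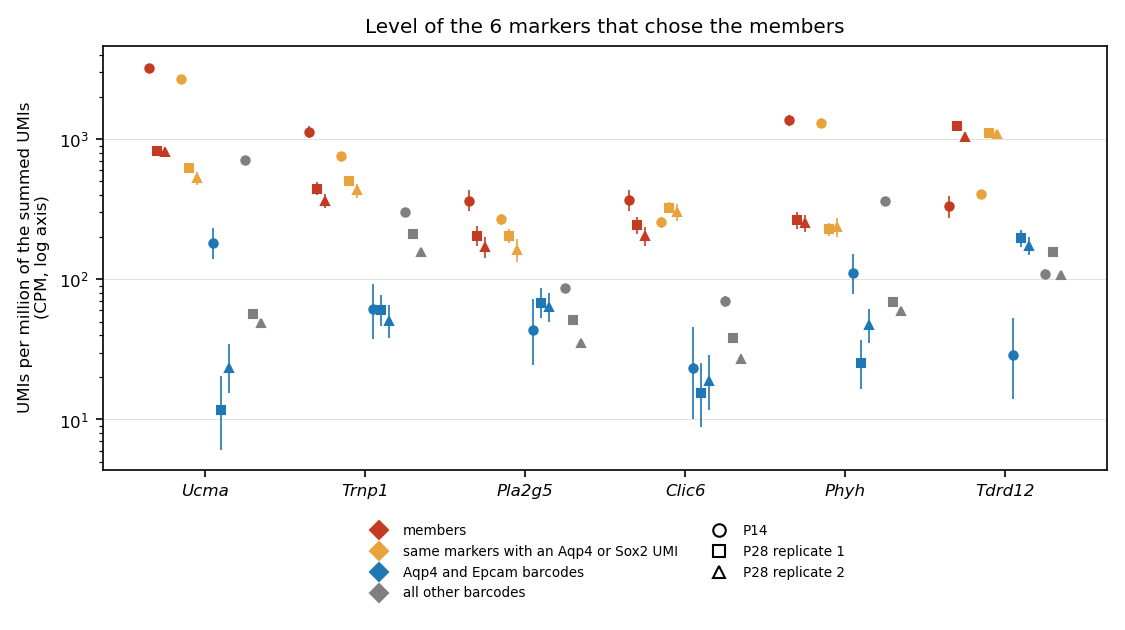
Level of the 6 marker genes, in CPM on a log axis, in the Ucma-positive cells (members), in barcodes with the same markers but an Aqp4 or Sox2 UMI, in Aqp4 and Epcam barcodes, and in all other barcodes; shapes are libraries and bars are exact Poisson 95% intervals. The markers chose the red points, and the orange points, left out for Aqp4 or Sox2, lie close to them, for example Tdrd12 near 1000 CPM at P28 in both groups.

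Many barcodes with the same markers stood just outside the rule. In all, 977 barcodes had a Ucma UMI and at least 3 of the markers, and 478 of them were left out for Aqp4 or Sox2 UMIs (347 for Aqp4 alone, 40 for Sox2 alone, 91 for both) and 9 for Ocm. The left-out barcodes were deeper, with medians of 9227, 6995 and 4697 UMIs. An Aqp4 UMI, which chose most of them, was in 92.4%, 93.0% and 88.8% of them, and in 27.9%, 30.8% and 27.1% once each was thinned to 1000 UMIs. Among 965 genes at 100 CPM or more in the Ucma-positive cells of each library, 1 differed at least 2-fold between the 2 groups in all 3 libraries, whereas 26 were higher and 10 lower to that extent than in barcodes with Aqp4 and Epcam UMIs. That gene was Fxyd2, a regulatory subunit of the sodium-potassium pump, and its level rested on few cells: all 42 UMIs at P14 were in 1 cell, and the 3 cells with most UMIs held 95.1% and 90.0% of them at P28. The median size of the log2 ratio over these genes was 0.15, 0.16 and 0.17 against the left-out barcodes. At the other edge of the rule, 217 barcodes had Ucma and exactly 1 more marker, with medians of 803, 2041.5 and 2315 UMIs. Of the same 965 genes, 48 were at least 2-fold higher in the cells than in those barcodes in all 3 libraries and 3 were lower. The 965 genes were taken by their level in the Ucma-positive cells, so the balance of higher to lower genes is partly set by that choice. Genes below 100 CPM in the cells were not counted, so the count of 1 does not cover them. Otog, for example, was at 5.39, 7.75 and 19.4 CPM in the cells and at 37.8, 119 and 125 CPM in the left-out barcodes.

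The label of nonsensory epithelial cells was checked against genes outside the rule. Epcam, an epithelial adhesion molecule, was at 544, 271 and 208 CPM and had a UMI in 54.5%, 62.0% and 47.6% of the cells. The macrophage-marker barcodes were chosen to have no Epcam UMI, so they give no comparison for this gene. For every count of 0 below, the limit given is 3 counts of the total. It bounds barcodes with a UMI, not cells that express the gene. Gjb2 and Gjb6, the connexins of cochlear gap junctions, were at 2421, 1590 and 1111 CPM and at 883, 916 and 724 CPM, and Gata3, a transcription factor of the otic epithelium, at 1255, 878 and 722 CPM. Among hair cell genes, Slc26a5, the outer hair cell motor prestin, was at 2.69 CPM at P14 and had no UMI in the 389 cells at P28, which allows a share of up to 0.771%. Otof, the inner hair cell exocytosis protein otoferlin, was at 5.39, 7.75 and 8.50 CPM. Calb2, the calcium-binding protein calretinin from the same marker list, was at 10.8 and 42.6 CPM at P14 and in P28 replicate 1, but at 532 CPM in P28 replicate 2, against 487 CPM in the other barcodes there. Slc26a4, the anion exchanger pendrin of root and spindle cells, had no UMI in the 101 cells at P14, which allows a share of up to 2.97%, and was at 9.04 and 34.0 CPM at P28, while Epyc, epiphycan, from the same marker list was among the genes with most UMIs. Levels of 3 more epithelial genes were near or below those of the other barcodes. Cdh1, E-cadherin, was at 43.1, 67.2 and 75.3 CPM against 50.3, 66.1 and 79.8 CPM, and the keratins Krt18 (2.69, 11.6 and 10.9 CPM against 23.2, 22.3 and 16.6 CPM) and Krt8 (16.2, 9.04 and 9.71 CPM against 19.7, 12.05 and 10.9 CPM) were below them in each library. The connexins do not set epithelium apart from fibrocytes. At P28, barcodes with Ucma and exactly 1 more marker had Otos, a fibrocyte marker, at 16235 and 7059 CPM. Their Gjb2 was at 1106 and 1102 CPM and their Gjb6 at 712 and 543 CPM. Thus Epcam, the connexins and Gata3 were present in the Ucma-positive cells, and Slc26a5 and Otof were near 0. No marker used here places the cells along the epithelium.

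The cells carried high levels of a small set of transcripts. Mitochondrial genes were left out of the ranks and of the most counted genes given here. S100a1, a calcium-binding protein, was at 24643, 34833 and 26656 CPM, so that it held the first rank in both P28 libraries. Lgals1, the secreted lectin galectin-1, was at 28820, 13679 and 8768 CPM. Fbxo2, an F-box protein that binds glycoproteins, was at 26415, 8578 and 6656 CPM, and Skp1a, its partner in ubiquitin ligases, at 14184, 6390 and 5941 CPM. These 4 genes and Malat1, Tmsb4x and Fth1 were in the 10 most counted of all 3 libraries.

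Compared with all other barcodes, Frzb, Padi1 and Lgals1 led the genes named as higher in the Ucma-positive cells, and Acbd7, Pcp4 and Otof those named as lower. The comparison paired the summed UMIs of the cells with those of the other barcodes within each library, 3 sums against 3, with the quasi-likelihood test of edgeR and p-values adjusted after Benjamini and Hochberg. Of 13172 genes tested, 1314 (9.98%) were higher and 1200 (9.11%) lower at an adjusted p under 0.05, and the median log2 fold change of all genes was -0.09. Without P28 replicate 1 the count of higher genes was 694. The other barcodes include those with Ucma and at least 3 markers left out for Aqp4, Sox2 or Ocm. Without these, 1181 genes were higher and 941 lower. The 9 genes of the rule were not tested. Genes that go with them are not independent of the choice of cells, and the p-values measure the spread over 3 pools.

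Frzb, a secreted inhibitor of Wnt signalling, had the largest increase among genes seen in at least 20% of the cells of each library. It was at 989, 471 and 412 CPM in the cells and at 182, 59.2 and 43.8 CPM in the other barcodes. Every value in the cells lay above every value outside them, and the log2 fold change was 3.20 ± 0.20 (SE; adjusted p = 8.57e-06, edgeR). Lgals1 rose by 2.76 ± 0.17 with 6995, 2272 and 1331 CPM in the other barcodes, the highest of which was below the lowest value in the cells. Odc1, which makes polyamines, was even over the libraries at 1834, 2069 and 1588 CPM against 409, 387 and 304 CPM (log2 2.63 ± 0.17). Padi1, a peptidylarginine deiminase, was at 199, 601 and 563 CPM against 63.7, 99.4 and 70.5 CPM (log2 2.77 ± 0.25).

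The other leading genes held several surface and matrix proteins. Epyc was at 14464, 5594 and 4796 CPM against 4601, 1107 and 801 CPM (log2 2.50 ± 0.20), so the groups did not overlap, although its P14 level outside the cells came close to its P28 levels within them. Cd44, the hyaluronan receptor, was at 504, 302 and 277 CPM against 125, 75.4 and 65.8 CPM (log2 2.34 ± 0.16). Ccn2, a matricellular protein, rose by 2.32 ± 0.18, Vldlr, a lipoprotein receptor, by 2.39 ± 0.23, Krt19, a keratin of simple epithelia, by 2.61 ± 0.22, and Pdlim1, an actin-associated PDZ and LIM domain protein, by 2.28 ± 0.23. Ccdc69 (2.68), Prr15 (2.54), Rprm (2.30) and Prss36, a serine protease (2.27), completed the list with Car3. Car3, carbonic anhydrase 3, was at 1519, 2540 and 1494 CPM against 861, 324 and 314 CPM, and its SE of 0.35 around a log2 fold change of 2.34 was the largest among these 15 genes. At P14 its 564 UMIs lay in 51 cells, and the 3 cells with most held 40.4% of them, whereas at P28 the corresponding shares were 8.49% and 12.8%. Of the 6081 Car3 UMIs in the other barcodes at P14, 5757 were in barcodes left out for an Aqp4 or Sox2 UMI. At P28 the left-out barcodes held 2752 of 7727 and 898 of 7059.

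Among genes at 100 CPM or more in the other barcodes of each library that passed the test in the same direction in all 3, the 5 with the largest falls were Acbd7, Pcp4, Otof and the haemoglobin genes Hba-a1 and Hbb-bs. Pcp4, a calmodulin regulator, was at 108, 43.9 and 36.4 CPM against 4133, 1944 and 1219 CPM (log2 -4.96 ± 0.19), Acbd7 fell by 5.05 ± 0.29 and Otof by 3.97 ± 0.27. These 3 calls were lost without the barcodes that had 3 markers of another lineage, hair cells among them, where the log2 fold changes were -0.19 for Pcp4, -0.89 for Acbd7 and -0.55 for Otof. Acbd7 and Otof are themselves on the inner hair cell list that removed barcodes, so the loss of their calls is partly set by that choice. Pcp4 is not on a removing list. The haemoglobin gene Hbb-bs was at 172, 199 and 3815 CPM in the cells against 10048, 6379 and 9125 CPM (log2 -3.80 ± 0.74), and it turned to 0.07 once barcodes with red blood cell markers were left out as well. Hbb-bs and Hba-a1 are among those markers, so this turn is partly set by the removal. The high value in P28 replicate 2 came from few cells, of which 3 held 93.8% of the UMIs. Hba-a1 fell by 3.95 ± 0.84, and without P14 the change was -2.76 and no longer past the threshold.

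**Figure D2:**
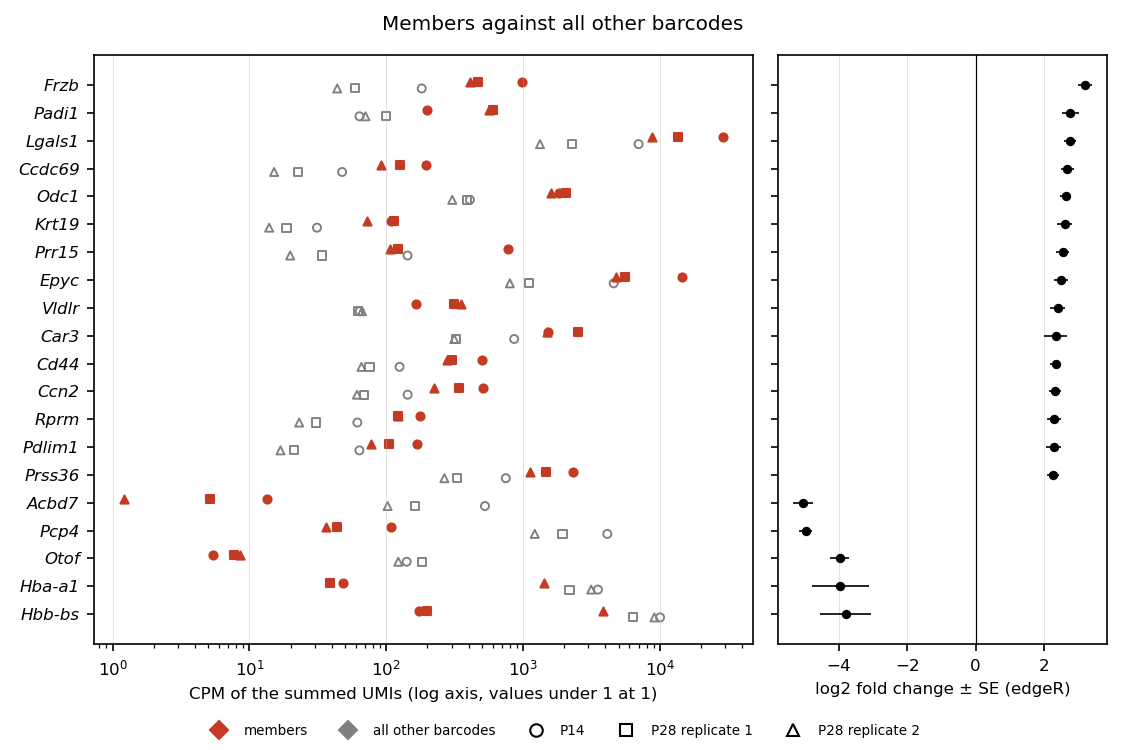
Left, level in CPM (log axis) of the 15 higher and 5 lower genes named by rule, in the Ucma-positive cells (filled, members) and in all other barcodes (open), with 1 shape per library; right, log2 fold change with its SE from edgeR. Frzb is highest on the right at 3.20, and the haemoglobin genes Hba-a1 and Hbb-bs have the widest SE, 0.84 and 0.74, with P28 replicate 2 far from the other libraries.

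Lists of genes that mark other cell types were used to see what else the cells carried. Their counts stand beside the 9.98% higher and 9.11% lower of all genes tested. Of the markers of sulcus and Hensen-side cells other than Aqp4, all 5 tested were higher than in the other barcodes: Gjb2 (log2 1.70), Fst, a binding protein of activin (1.61), Gata3 (1.5), Nupr1 (0.95) and Epcam (0.80). In the spindle and root cell list 4 of 6 were higher, Epyc, the potassium channel Kcnj16 (1.5), Lgr5 (0.90) and the ATP-gated channel P2rx2 (0.88), and Anxa1 was lower (-1.63). Against only those other barcodes that had an Epcam UMI, P2rx2 turned to -0.14. The outer hair cell list summed to 88.9, 95.6 and 76.5 CPM in the cells against 1946, 802 and 495 CPM outside, with 4 of 5 lower, and the inner hair cell list, with 4 of 6 lower, summed to 70.0, 142 and 613 CPM against 1080, 1210 and 876 CPM.

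Lists for cells outside the epithelium were counted in the same way, beside the 9.98% higher and 9.11% lower of all genes tested. The fibroblast list had 5 of 6 genes lower, and Col1a1 had no UMI in the 490 cells, which allows a share of up to 0.612%, but Lum, a small leucine-rich proteoglycan, was higher at 2012, 346 and 376 CPM against 658, 120.5 and 125 CPM (log2 1.88). The macrophage list summed to 5.39, 212 and 48.6 CPM (3 of 6 lower), the B cell list had 4 of 5 lower, and the bone cell list was at 0, 3.88 and 15.8 CPM. The spiral fibrocyte list summed to 1694, 4927 and 4510 CPM against 2804, 3724 and 4804 CPM, with Car3 higher and 3 of 6 lower. Its most abundant gene was Car3 at P14 and in P28 replicate 1 and Otos in P28 replicate 2, and 4.95%, 19.6% and 30% of the cells had a UMI in at least 3 of its genes. The red blood cell list, whose most abundant gene was Hbb-bs, summed to 318, 305 and 7362 CPM against 18741, 11629 and 16912 CPM. The neuron list, led by Snap25 at P28, summed to 8.08, 404 and 1733 CPM against 66.3, 2143 and 2021 CPM, and the 3 cells with most Snap25 UMIs held 97.1% and 63.3% of them at P28. Barcodes that hold more than 1 cell were not removed, and how far they add to these levels was not tested beyond leaving out barcodes with 3 markers of another lineage.

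**Figure D3:**
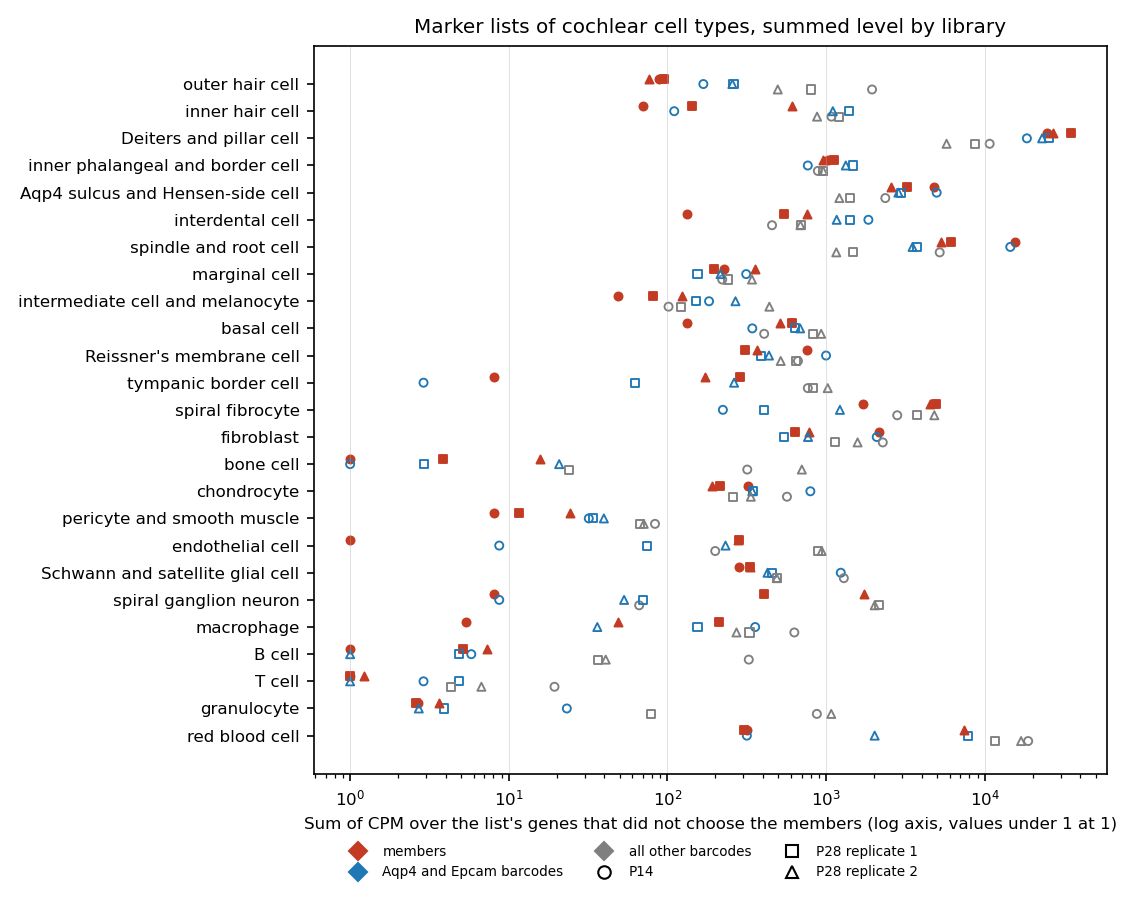
Summed CPM (log axis) over the genes of each of 25 cell type marker lists, without the genes of the rule, in the Ucma-positive cells (filled, members), in Aqp4 and Epcam barcodes and in all other barcodes (open), with 1 shape per library. The cells lie above all other barcodes for the lists of spindle and root cells and of sulcus and Hensen-side cells. For hair cells and blood cells they lie below. The Aqp4 and Epcam barcodes summed to 4969, 2946 and 2852 CPM for the sulcus list, against 4792, 3253 and 2555 CPM in the cells. Of 6 spindle and root genes, 1 was higher in the cells than in those barcodes. The Deiters and pillar cell sum is nearly all S100a1. The spindle and root cell sum is mostly Epyc (14464 of 15469 CPM at P14, where Slc26a4 and Anxa1 had no UMI).

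The lists by function were read against all genes tested, of which 9.98% were higher and 9.11% lower than in all other barcodes, with a median log2 fold change of -0.09. Of 33 genes for adhesion, tight junctions and keratins tested, 13 were higher and 2, Tjp1 and Cgn, were lower, with a median log2 fold change of 0.62. The higher ones held Krt19, Dsc2, F11r (1.48), Cldn8 (1.19), Esrp1, a splicing regulator of epithelia (1.11), Cldn3 (0.95), Cldn7 (0.78) and Ildr1 (0.71). Against the other barcodes with an Epcam UMI only, 1 of 31 was higher and 10 were lower. Of all 11272 genes tested there, 646 were higher and 739 lower. Cldn3 (-0.49), Cldn7 (-0.48), Cldn8 (-0.27), Esrp1 (-0.34) and Ildr1 (-0.52) turned in direction. The compared barcodes included those with the same markers left out for Aqp4 or Sox2, where they had an Epcam UMI. Of the left-out barcodes, 93.0%, 80.1% and 62.7% had one. An Epcam UMI was required of the compared barcodes only, and 54.5%, 62.0% and 47.6% of the cells had one. Genes that go with Epcam are thus not independent of this choice, here and wherever the Epcam barcodes are compared. Cgn turned upward to 0.51, without passing the threshold, when barcodes with 3 markers of another lineage were left out.

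The genes of ligands, receptors and inhibitors in the Notch, Wnt, Fgf and Bmp pathways went both ways, 13 higher and 13 lower of 46, against 9.98% and 9.11% of all genes. Higher beside Frzb were Rspo2, which amplifies Wnt signals (2.54), the ligands Bmp4 (1.88), Bmp7 (1.44) and Wnt9a (1.52), and Fst. Bmp4 was at 426, 163 and 266 CPM against 133, 70.2 and 76.0 CPM, and every value in the cells was above every value outside. Bmp2 (-3.07) and Fzd10 (-2.85) were among the lower ones. Of 34 transcription factors of the otic epithelium, 7 were higher, among them Gata2 (1.52), Gata3, Sox10 (1.29) and Eya1 (1.15), and 3 were lower, a share near that of all genes, among them Tbx1 (-1.71). Against the barcodes with Epcam only, Sox10 turned to -0.10.

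Of the tectorial membrane list, 5 collagens were higher: Col11a1 (1.62), Col9a3 (1.59), Col9a2 (1.24), Col9a1 (1.21) and Col11a2 (1.19). The noncollagenous tectorial proteins Otog, otogelin (-2.62), and Tectb, beta-tectorin (-3.64), were lower, as was Col2a1 (-1.05), for 5 higher and 5 lower of 13. Of 37 genes of collagens, laminins and basement membrane, 7 were higher, among them Frem2 (1.95) and Npnt, nephronectin (1.55), and 9 lower, beside the 9.98% and 9.11% of all genes.

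The pathways in which the markers themselves act were also listed. Of the other 18 phospholipase A2 and prostaglandin genes tested, 6 were higher, among them Hpgd, which breaks down prostaglandins (1.41), Pla2g7 (1.31), Pla2g12a (1.30) and Alox12 (2.34), and 1 was lower. Ptgds, a prostaglandin D synthase, was higher by 0.87 and turned to -0.31 when 4 markers were asked for. Of 34 peroxisomal and branched-chain lipid genes, 4 were higher, a share near the 9.98% of all genes tested, and all by less than 1: Cat, Scp2, Ech1 and Acaa1a (0.63 to 0.67). Of 15 other genes tested from the list of gamma-carboxylated proteins and the vitamin K cycle, 4 were lower, Pros1, Mgp, Bglap and Tgm2, the last a transglutaminase that belongs to neither group; Mgp, matrix Gla protein, was at 10.8, 9.04 and 7.29 CPM in the cells and turned to 1.31 against the Epcam barcodes. Of 4 piRNA pathway genes tested, Tdrd7 was higher (1.20) and Tex15 lower (-2.30).

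In ion transport, Fxyd6, a regulator of the sodium-potassium pump, was at 1018, 1258 and 1016 CPM against 263, 494 and 490 CPM (log2 1.76 ± 0.19). Kcnj15 (2.39) was higher too, for 6 higher and 7 lower of 31 potassium and sodium genes, where 9.98% and 9.11% of all genes were called. Of 25 chloride genes 2 were higher, among them Slc12a2, the sodium-potassium-chloride cotransporter (0.95), a share near that of all genes, and 4 lower. Among 10 carbonic anhydrases, Car3, Car13 (2.07) and Car5b were higher, and Car2 (-0.90), Car7 (-3.40) and Car14 were lower. Of 37 antioxidant genes, 6 were higher, with Prdx6 (1.54), Prdx2 (1.21) and Prdx1 (0.82) the peroxiredoxins among them, and 3 were lower, a share near that of all genes, among them Gstm1 (-1.29). Gpx4, higher by 0.68, turned to -0.06 against the Epcam barcodes.

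A second comparison took 428 barcodes with an Aqp4 and an Epcam UMI and fewer than 3 of the markers (74, 149 and 205 per library). Car3, Ccn2 and Bmp4 led the genes named as higher in the Ucma-positive cells, and Pcdh17, Fabp7 and Otog those named as lower. Of 8476 genes tested by the same edgeR test, 468 (5.52%) were higher and 489 (5.77%) lower at an adjusted p under 0.05, with a median log2 fold change of -0.01. These barcodes were deeper, with medians of 3301, 5246 and 3976 UMIs, and when every barcode was thinned to 1000 UMIs 77 genes were higher and 117 lower. Without P28 replicate 1 the counts were 197 and 259. Since absence of Aqp4 and Sox2 chose the cells, genes that go with those 2 are not independent of the choice here. The same holds for genes that go with Epcam, which chose the compared barcodes and not the cells.

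Car3 had the largest increase, from 17.4, 71.0 and 111 CPM in the Aqp4 barcodes to 1519, 2540 and 1494 CPM in the cells, with no overlap (log2 4.98 ± 0.39; adjusted p = 3.96e-05, edgeR). Bmp4 was at 426, 163 and 266 CPM against 75.4, 21.4 and 44.2 CPM (log2 2.81 ± 0.20), again with no overlap. Ccn2 (2.86 ± 0.23), Hint1 (2.65 ± 0.21), Padi1 (2.38 ± 0.22), Pdlim1 (2.35 ± 0.23) and Ccdc69 (2.22 ± 0.20) were also higher. Sytl2, a Rab27-binding protein, was at 183, 190 and 170 CPM against 31.9, 41.8 and 40.6 CPM (log2 2.35 ± 0.19). Lgals1 rose by 2.21 ± 0.23. Thinned to 1000 UMIs per barcode, 8 of these 9 genes kept their call, and Pdlim1 did not.

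On the lower side stood genes that the Aqp4 barcodes carried in every library. Otog was at 5.39, 7.75 and 19.4 CPM in the cells against 220, 485 and 405 CPM (log2 -4.90 ± 0.30; adjusted p = 8.22e-06, edgeR). Hey2, a transcriptional repressor induced by Notch, was at 8.08, 6.46 and 10.9 CPM against 151, 120 and 131 CPM (log2 -3.75 ± 0.26). Fabp7, a fatty acid-binding protein, fell by 5.31 ± 0.35, Pcdh17, a protocadherin, by 5.46 ± 0.42, Slitrk6, a neuronal transmembrane protein, by 4.75 ± 0.25, Rorb, a nuclear receptor, by 4.03 ± 0.26 and Sall2, a zinc finger factor, by 3.72 ± 0.22. Agr3 (-4.03), Rassf9 (-3.74) and Nckap5 (-3.67) completed the list.

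The barcodes left out for an Aqp4 or Sox2 UMI lay between the groups for these 10 genes. In all 3 libraries, 10 of 10 were above the Ucma-positive cells and 10 of 10 below the Aqp4 and Epcam barcodes. Otog, for example, was at 37.8, 119 and 125 CPM in the left-out barcodes, and Hey2 at 27.1, 37.5 and 33.3 CPM. This is a description, since Aqp4 and Sox2 chose both groups and the 10 genes were named for being low in the cells against the Aqp4 barcodes.

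**Figure D4:**
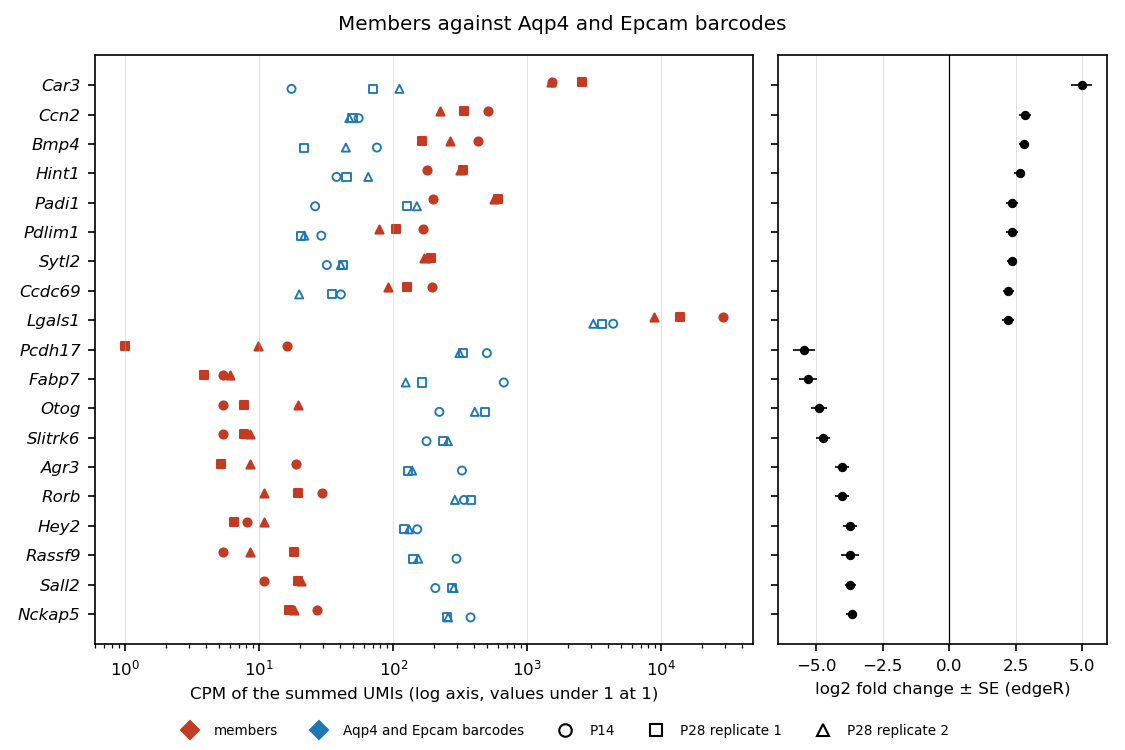
Left, level in CPM (log axis) of 9 higher and 10 lower genes named by rule, in the Ucma-positive cells (filled, members) and in Aqp4 and Epcam barcodes (open), with 1 shape per library; right, log2 fold change with its SE from edgeR. The widest gaps drawn are those of Pcdh17, Fabp7 and Car3, with log2 fold changes of -5.46, -5.31 and 4.98.

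The lists of transcription factors and of signalling genes were also counted against the Aqp4 barcodes, where 5.52% of all genes tested were higher and 5.77% lower. Among 25 otic transcription factors, 11 were lower, among them the Notch effectors Hey2, Hey1 (-2.38), Hes1 (-1.41) and Heyl (-1.27), the inhibitors Id1 (-1.10) and Id2 (-0.92), Emx2 (-2.43), Gata2 (-0.96), Sox9 (-0.88) and Nr2f1 (-0.66), and Eya1 was higher (0.62). Among 35 signalling genes, the ligand Jag1 (-2.96), the receptors Notch3 (-3.89) and Notch1 (-0.96) and the modifier Lfng (-3.08) were lower with Fgfr3 (-3.17), Wnt7a (-2.77), Inhba (-1.80) and Sfrp1 (-1.30), for 10 lower. Jag1 was at 5.39, 28.4 and 19.4 CPM against 206, 170 and 153 CPM, and Hey1 at 59.3, 31.0 and 17.0 CPM against 218, 170 and 172 CPM. The 7 higher genes were Rspo2 (2.92), Bmp4, Fgf1 (2.16), Frzb (2.08), Wnt9a, Fst (1.58) and Chrdl1, a Bmp inhibitor (1.15).

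The next counts also stand beside the 5.52% higher and 5.77% lower of all genes tested against the Aqp4 barcodes. Both connexins tested were higher in the Ucma-positive cells, Gjb6 by 1.22 ± 0.19 and Gjb2 by 0.93 ± 0.17. Of 29 epithelial genes, 7 were lower, with the keratins Krt18 (-2.50) and Krt8 (-1.47) and desmoplakin, Dsp (-1.57), and Krt19 was higher (1.14). An Epcam UMI was required of the Aqp4 barcodes and was found in 54.5%, 62.0% and 47.6% of the cells. The balance of this list is thus not independent of that choice. The antioxidant genes had 7 higher of 30, the peroxiredoxins Prdx5 (1.12), Prdx6 (1.04), Prdx2 (1.04) and Prdx1 (0.90) and Sod2 (0.65), Gpx3 and Mt3, while the detoxifying enzymes Gstm1 (-2.07) and Mgst1 (-1.78) were lower. Otogl (-3.07), the otogelin-like protein, and Tectb (-5.84) fell with Otog. Slc12a7, a potassium-chloride cotransporter, fell by 1.49 ± 0.19, from 197, 634 and 526 CPM in the Aqp4 barcodes to 61.9, 183 and 189 CPM. Kcnj10 (-1.47), an inward rectifier, was lower, and the pump regulators Fxyd6 (1.82) and Fxyd2 (2.93) were higher, the latter in few cells as above.

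Fibrocyte genes were higher than in the Aqp4 barcodes beside Car3, and their P28 levels were carried by few cells. Otos, otospiralin, was at 64.6, 1221 and 1757 CPM against 69.6, 111 and 423 CPM (log2 2.28), and Coch, cochlin, at 21.5, 761 and 815 CPM against 11.6, 111 and 383 CPM (1.96). The 3 cells with most Otos UMIs held 79.6% of them in P28 replicate 1 and 44.9% in P28 replicate 2. An Otos UMI was found in 38.0% and 60.5% of the Ucma-positive cells at P28, close to the 44.3% and 60.2% of the macrophage-marker barcodes, which should lack it, so the share was not read as expression. Otor, higher by 1.69, turned to -1.30 when 4 markers were asked for. Snap25 (4.34) and Nefl (2.91), neuronal genes, were higher in the same way, with 97.1% and 88.9% of their UMIs in 3 cells of P28 replicate 1.

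With age, Col9a1, Mia and Tmprss9 were among the genes at lower levels in the Ucma-positive cells at P28, and Gpx2 and Ppp1r1b among those at higher levels. P14 had 1 library, so a gene was counted where its exact Poisson 95% interval at P14 overlapped neither P28 interval and the P28 mean differed at least 2-fold with 1 CPM added. Of 15697 genes, 387 (2.47%) passed on the higher side at P28 and 346 (2.2%) on the lower side. These intervals cover counting error only, and with 1 pool at P14 age cannot be told apart from pool. After thinning to 1000 UMIs per barcode the counts were 54 and 127. The first also depends on the barcodes chosen, being 140 with at most 3000 genes and 15000 UMIs, 163 without barcodes carrying 3 markers of another lineage and 844 without P28 replicate 1.

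Col9a1, a chain of collagen IX, was at 1102 CPM at P14 (997 to 1214) and at 21.96 and 18.2 CPM at P28, a log2 ratio of -5.71. The other barcodes were at 399, 15.3 and 15.1 CPM (-4.62), lower at P28 as well. Mia, a secreted protein first known from melanoma and cartilage, was at 7138 CPM at P14 against 375 and 304 CPM (-4.39), and the other barcodes were at 2917, 174 and 145 CPM. Tmprss9, a transmembrane serine protease, was at 547 CPM at P14 against 2.58 and 6.07 CPM (-6.68). The left-out barcodes with the same markers, which are also among the other barcodes, gave 521, 5.26 and 0 CPM for Tmprss9. For Mia they gave 7729, 410 and 429 CPM, so the drop was present in them as well as in the cells. At P14 they held 1772040 of the 7060780 UMIs of the other barcodes.

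Gm45889 (145 CPM at P14 and no UMI in the 389 cells at P28, which allows a share of up to 0.771%), AY036118 (-5.47), Ager (-4.90), Spink8, a protease inhibitor (-4.50), and Lars2, a mitochondrial leucyl-tRNA synthetase (-4.42), completed the 8 leading genes on this side. All 8 were lower at P28 in the other barcodes too, with log2 ratios from -2.59 (Ager) to -5.86 (Tmprss9). Beside the 2.2% of all genes that were lower at P28 and the 2.47% that were higher, the lists gave the following. Among markers of other cell types, 4 of 6 spiral fibrocyte genes were higher at P28 (Coch, Otos, Otor and Dcn) and 0 lower. In the neuron list 4 of 6 were higher (Nefh, Nefl, Nefm and Snap25) and 0 lower. The UMIs of Otos and Snap25 lay in few cells, as above. Of 13 genes of the tectorial list, 6 were lower at P28, Col2a1, Col9a1, Col9a2, Col9a3, Col11a1 and Col11a2, and 2 were higher, Otogl and Ceacam16, a tectorial membrane glycoprotein at 113, 490 and 668 CPM. Of 37 genes of the basement membrane list, 3 of them also in the tectorial list, 9 were lower at P28 and 1 was higher, and in the other barcodes the log2 ratios of these 9 ran from -0.95 (Itgb1) to -4.62 (Col9a1). Of 35 epithelial genes, 4 were lower at P28, Epcam (-1.18), Cldn7 (-1.25), F11r (-1.83) and Lsr (-1.64), with -1.60, -1.87, -1.56 and -1.55 in the other barcodes. Lower too were Frzb (-1.16), Epyc (-1.48), Lum (-2.47) and Gata2 (-1.53), with -1.80, -2.27, -2.41 and -1.23 in the other barcodes.

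On the higher side at P28, Gpx2, a glutathione peroxidase, was found in most of the cells. It was at 108 CPM at P14 (76.97 to 147) and at 811 and 685 CPM at P28 (log2 2.78), in 22.8%, 76.0% and 64.8% of the cells, while the other barcodes had 525, 657 and 495 CPM (0.13). Macrophage-marker barcodes had a Gpx2 UMI in 5.66%, 22.4% and 23.9% of cases. The left-out barcodes with the same markers, which are part of the other barcodes, gave 112, 868 and 527 CPM. Gpx1, Gpx3, Gstm1, Mt1 and Mt3 from the antioxidant list also passed on this side, and Gpx8, Prdx1 and Gsta4 on the other.

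The remaining genes on this side differed in how widely they were spread. Ppp1r1b, the phosphatase inhibitor DARPP-32, was at 2.69, 150 and 112 CPM (log2 5.16) and was higher at P28 in the other barcodes as well (3.68). It had 1 UMI at P14, and 52.6% and 23.9% of its P28 UMIs lay in 3 cells. Tcap, telethonin, was at 24.2, 304 and 216 CPM (3.37) against 0.44 in the other barcodes, and 52.8% and 41.6% of its P28 UMIs lay in 3 cells. Otos (4.50) and Ptgds (2.96), the latter at 488, 3441 and 4153 CPM, were higher at P28 in the other barcodes as well (1.39 and 2.86) and were also carried by few cells, with 53.3% and 36.8% of the Ptgds UMIs at P28 in 3 cells. Ifi27l2a (2.56), Rps27rt (2.50) and Abhd14b (2.48) completed the list, and the other barcodes moved by 2.08, 2.19 and 1.80 for these 3 genes. Id3, an inhibitor of bHLH factors, went the other way at 1368, 692 and 458 CPM (-1.25), against -0.12 in the other barcodes; neither difference between the cells and the others was tested.

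**Figure D5:**
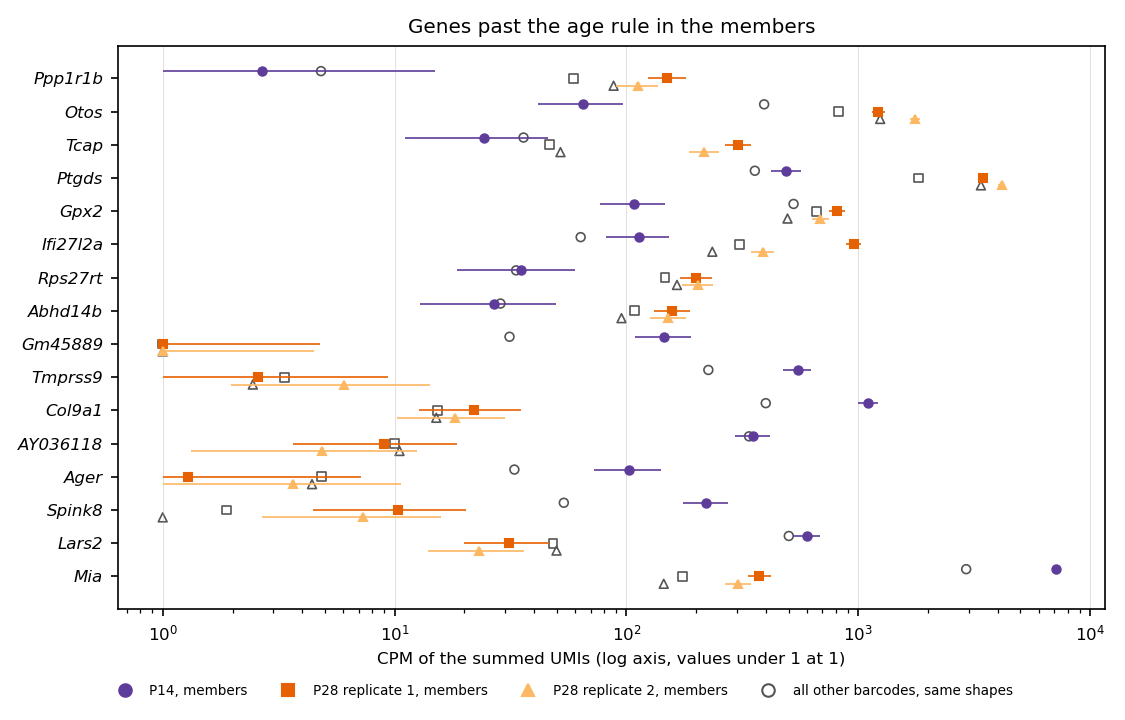
Level in CPM (log axis) of the 8 genes in each direction named by the age rule, in the Ucma-positive cells of each library (filled, with exact Poisson 95% intervals) and in all other barcodes of the same libraries (open). Open points follow filled ones across ages for most genes; Gpx2 is an exception, with 108 CPM at P14 in the cells and 525 CPM in the other barcodes.

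Variation among the Ucma-positive cells of a library was taken from thinned counts. After thinning to 1000 UMIs per cell, which kept 79, 171 and 206 cells, 511 genes had a mean of at least 0.2 UMI, and their median ratio of variance to mean was 1.11 and 1.12 in the P28 libraries, where 1 is expected from counting alone. The ratio was 133 and 92.7 for Ptgds and 201 and 88.5 for Otos, with as many as 265 of the 1000 UMIs of a cell coming from Otos. At P14 it was 0.93 for Ptgds and 2.47 for Otos, whose means there were 0.49 and 0.11 UMI, and 61.8 for Malat1. Coch (5.92 and 13.6), Ptn, a growth factor (11.4 and 5.74), and Rnase1 (10.6 and 9.98) varied likewise, each carried by few cells. S100a1 (12.2 and 13.6) and Lgals1 (7.11 and 7.71) varied in another manner, being found in 93.8% to 100% of the cells of each library, as did Malat1 (17.3 and 14.8).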

How the data were processed

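Cochleae of C57BL/6J mice were profiled by droplet single-cell RNA sequencing in 3 libraries. The authors aligned reads to mm10 and counted UMIs with Cell Ranger, version 6.0.1 in the submitters' processing notes and 5.0.1 in the file header, and deposited filtered matrices of raw UMI counts for 32285 genes. No deposited file maps a barcode to a cell type or a mouse. From 32657 barcodes, 14378 passed the limits on genes and mitochondrial UMIs. The members and the gene lists were chosen with earlier results of these data known.

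Counts were summed per library over members and compared barcodes and tested with edgeR 4.0.16 (TMM, filterByExpr, quasi-likelihood test, Benjamini-Hochberg adjustment over all genes tested, R 4.3.3), with library as a block, since both sums of a pair come from the same pool. Rule genes and mitochondrial genes stayed in the fit and out of the tests; Epcam was also left out against the Aqp4 barcodes. Genes named were the 15 higher and 5 lower (10 and 10 against the Aqp4 barcodes) with the largest log2 fold change among those with adjusted p under 0.05 and the same direction in 3 of 3 libraries. Higher genes needed at least 30 UMIs in the member sums and a UMI in at least 20% of members of each library, and lower genes at least 100 CPM in the compared barcodes, with a UMI in at least 20% of the Aqp4 barcodes. Age-named genes were the 8 in each direction past the age rule with at least 100 CPM, at a level above all other barcodes, at the age of the higher level. List genes could also be named. One of the higher genes against the Aqp4 barcodes is not reported here. Tested on simulated 4-fold changes, the fit found 87% of 200 changed genes with 2 false calls against all other barcodes, and 91.5% with 11 false calls against the Aqp4 barcodes. The simulation gave every gene the same dispersion. It did not cover genes carried by few cells or tied to the choice of cells, so these are not error rates of the real data. Intervals were exact (Poisson for CPM, Clopper-Pearson for shares above 0) and cover counting error only; for a count of 0 the limit is 3 counts of the total. Thinning drew 1000 UMIs per barcode. Doublets were not removed in the main results; an alternative left out barcodes with a UMI in 3 or more markers of another lineage. Other alternatives changed the limits, markers, normalization (RLE), tool (DESeq2 1.42.0), filter, block, compared barcodes and libraries; 2 were added after the data were seen, the removal of red blood cell markers and of other barcodes with Ucma and 3 markers.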

Additional observations from a re-analysis of the deposited data

Results flagged for a closer look

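The 5 genes flagged had a lower CPM in the Ucma-positive cells than in the Aqp4 and Epcam barcodes at P14. In both P28 libraries their CPM was higher in the cells. They are not a count over all genes tested. The difference between ages was not tested, and the P14 levels rest on few UMIs. Otos (log2 2.28 over the libraries) was at 64.6 CPM in the cells against 69.6 CPM at P14, which is 24 UMIs in each group with intervals that overlap (41.4 to 96.2 and 44.6 to 103.6 CPM), so that no direction is shown there, and at 1221 against 111 CPM and 1757 against 423 CPM at P28. Otor (1.69) was at 2.69 against 5.80 CPM at P14 and at 216 against 23.3 CPM and 194 against 135 CPM at P28. Snap25 (4.34) was at 2.69 against 2.90 CPM at P14, which is 1 UMI in each group, and at 178 against 20.4 CPM and 619 against 15.3 CPM at P28. Gpx3 (1.72) was at 8.08 against 17.4 CPM at P14, and at 161 against 48.6 CPM and 177 against 51.5 CPM at P28. Mt3 (2.08) was at 2.69 against 29.0 CPM at P14, and at 33.6 against 10.7 CPM and 214 against 29.8 CPM at P28. The P14 levels of Otor, Snap25, Gpx3 and Mt3 rested on 1, 1, 3 and 1 UMIs in the cells. The 3 cells with most UMIs held 84.4% and 67.5% of the Otor UMIs at P28 and 80.8% and 37.5% of those of Mt3, and 27.2% and 36.3% of those of Gpx3.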

How the results depend on the processing

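Over the alternatives run, the named genes kept direction and call in 1375 of the values against all other barcodes, kept direction but lost the call in 234 and turned in 13; against the Aqp4 barcodes these were 938, 107 and 1. Causes of these shifts were not tested.

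The pairing within a library was part of the main fit, because both sums of a pair come from the same pool of mice. With no replicate block, 44 genes were higher and 32 lower than in all other barcodes, and 57 higher and 134 lower than in the Aqp4 barcodes. Numbers that leave out 1 library each ranged from 694 to 1158 higher and 870 to 1495 lower against all others, from 197 to 624 and 259 to 586 against the Aqp4 barcodes, and from 490 to 844 higher at P28 and 422 to 465 higher at P14.

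Against all others, higher genes numbered 778 after thinning and 646 with only Epcam barcodes compared; lower genes numbered 2009 with at most 3000 genes and 15000 UMIs, 660 with 10 UMIs in every sum, 2448 with no filter on low counts and 739 with Epcam barcodes only. With no filter, 31.0% of the calls were higher, against 52.3%. Against the Aqp4 barcodes, higher and lower genes numbered 77 and 117 after thinning, 200 and 202 by DESeq2 and 873 and 797 with no filter. Higher genes were 720 with 4 markers and 709 with Aqp4 and Sox2 allowed, and lower genes 318 with at most 3000 genes.

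Genes higher at P28 numbered 140 with at most 3000 genes, 152 with 4 markers, 941 with Aqp4 and Sox2 allowed, 163 without barcodes of another lineage, 154 without red blood cell markers as well and 54 after thinning, when 127 were higher at P14. The shares at P14 and in P28 replicates 1 and 2 were 4.69%, 2.18% and 1.64% with 4 markers, 15.6%, 6.46% and 4.87% with Aqp4 and Sox2 allowed, 12.2%, 4.67% and 3.90% without barcodes of another lineage, and 13.2%, 4.92% and 3.93% without red blood cell markers as well. At P28 they were 2.69% and 1.97% with a mitochondrial limit of 30% and 4.0% and 4.43% with 10%. The P14 share was the highest under each of these.

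Directions turned against Epcam barcodes only for Cldn3 (-0.49), Cldn7 (-0.48), Cldn8 (-0.27), Esrp1 (-0.34), Gpx4 (-0.063), Ildr1 (-0.52), Mgp (1.31), P2rx2 (-0.14) and Sox10 (-0.10). An Epcam UMI was required there of the compared barcodes and not of the cells. The compared barcodes included those with the same markers left out for Aqp4 or Sox2 that had an Epcam UMI. Cgn turned to 0.51 without barcodes of another lineage and to 0.49 without red blood cell markers as well. There Hbb-bs, itself on the red blood cell list, was at 0.073. With 4 markers Ptgds turned to -0.31 and, against the Aqp4 barcodes, Otor to -1.30. At the depth of the P14 sum, 371267 UMIs, 1 UMI is 2.69 CPM, and differences among genes near that level were not detectable.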
